A study of Rattus norvegicus with 6 samples.

Results

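The 8 genes followed here act in the committed steps of gluconeogenesis, in glycerol entry and in the release of glucose from the liver. They were measured by RNA sequencing of liver from animals fed a high-fat diet. The genes were listed by name, with earlier results of these data known: Pcx, Pck1, Pck2, Gpd1, Fbp1, Slc37a4, Slc2a2 and glucose-6-phosphatase, which the authors' gene table lists as G6pc. All 8 were among the 32930 genes listed, and all 8 were among the 18455 genes that passed edgeR's expression filter and were tested. The HFD group was 3 animals on the high-fat diet that received the vehicle, 0.5% CMC-Na, and the HTG group was 3 animals on the same diet that were treated with HTG (Huazhuo Tiaozhi granule, a herbal preparation). The intervention lasted 12 weeks according to the series design, and the labels describe the livers as nonalcoholic fatty liver, so both groups share the diet and no group on ordinary chow was part of the comparison. In the treatment label of the HTG samples the agent is written HCG. The labels name rats, the paper's sequencing methods name dyslipidaemic C57BL/6 J mice, and the gene rows are mouse Ensembl genes, so the values are read here as mouse genes and the species was not settled. The paper describes the rats of its diet experiment as male Wistar animals that were fasted before anaesthesia. Those rats had the diet for 12 weeks and the drugs only during the last 8 of them. Whether these libraries came from those rats was not settled. For the mice the paper's text gives no sex, age or fasting.

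Gluconeogenesis makes glucose from lactate, pyruvate, amino acids and glycerol, and the liver is its main site in fasting. Most of its enzymes are those of glycolysis running backwards, but the irreversible steps need enzymes of their own: pyruvate carboxylase and PEP carboxykinase return pyruvate to phosphoenolpyruvate, fructose-bisphosphatase undoes the phosphofructokinase step, and glucose-6-phosphatase, fed by a transporter in the endoplasmic reticulum membrane, sets free glucose that leaves the hepatocyte through GLUT2. Glucagon and glucocorticoids are known to switch on transcription of several of these genes, and insulin to switch it off.

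The deposited counts summed to between 50648778 and 90563477 per library, lowest in HTG library 3 and highest in HTG library 2. Low counts came in steps of about 4, so these totals correspond to between 12662194 and 22640869 sequenced fragments, and an empty gene could hide up to 3 fragments, or 12 counts (0.123 to 0.256 CPM, counting error only). Levels are given in CPM, the counts of a gene relative to the TMM-normalised total of its library. The libraries differed in one respect that followed the groups: genes of the mitochondrial chromosome held 4.97% to 6.45% of all HFD counts but 9.31% to 15.2% of all HTG counts, and the part of this shift in the results was not tested. Of the 7 hepatocyte markers, 6 were in the table, and all 6 were above the limit of an empty gene. The adipocyte markers in the table were at or under that limit in every library (Adipoq at 0 throughout), and the kidney proximal tubule markers summed to at most 0.747 CPM, which matters here because kidney also makes Pck1, Fbp1 and G6pc.

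The HTG group had lower mRNA levels at 2 of these steps. Fbp1, fructose-1,6-bisphosphatase, was 3.03-fold lower (95% confidence interval 1.52 to 6.05), and Slc37a4, the glucose-6-phosphate transporter, was 2.08-fold lower (1.42 to 3.06). At an adjusted p under 0.1 in edgeR's quasi-likelihood test (Benjamini-Hochberg over all genes tested), 2 of the 8 genes were lower and 0 were higher, where 5.43% of all genes tested were lower and 5.41% higher. At an adjusted p under 0.05 the count was 0 of 8, with 0.0108% of all genes called in either direction. At an unadjusted p under 0.05, 5 of the 8 were lower (Fbp1, Slc37a4, Pcx, G6pc and Slc2a2), where 12.4% of all genes were. All 8 fitted changes lay below 0, with a median log2 fold change of -0.81, against 0.03 over all genes tested. In 3 genes, Fbp1, Pcx and Slc37a4, every HTG library was below every HFD library, which held for 15.5% of all genes tested. The 2 calls rested on all libraries but one: without HFD library 1, 2 or 3, or without HTG library 2 or 3, the count was 0, and without HTG library 1 it was 4 (Fbp1, Slc37a4, Pcx and G6pc), in a fit that called 8.16% of all genes tested lower. In the 5 fits with no member called, at most 1.1% of all genes tested were called lower. All libraries were bulk liver, in which fewer cells of a type and less RNA per cell cannot be told apart.

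**Figure D1:**
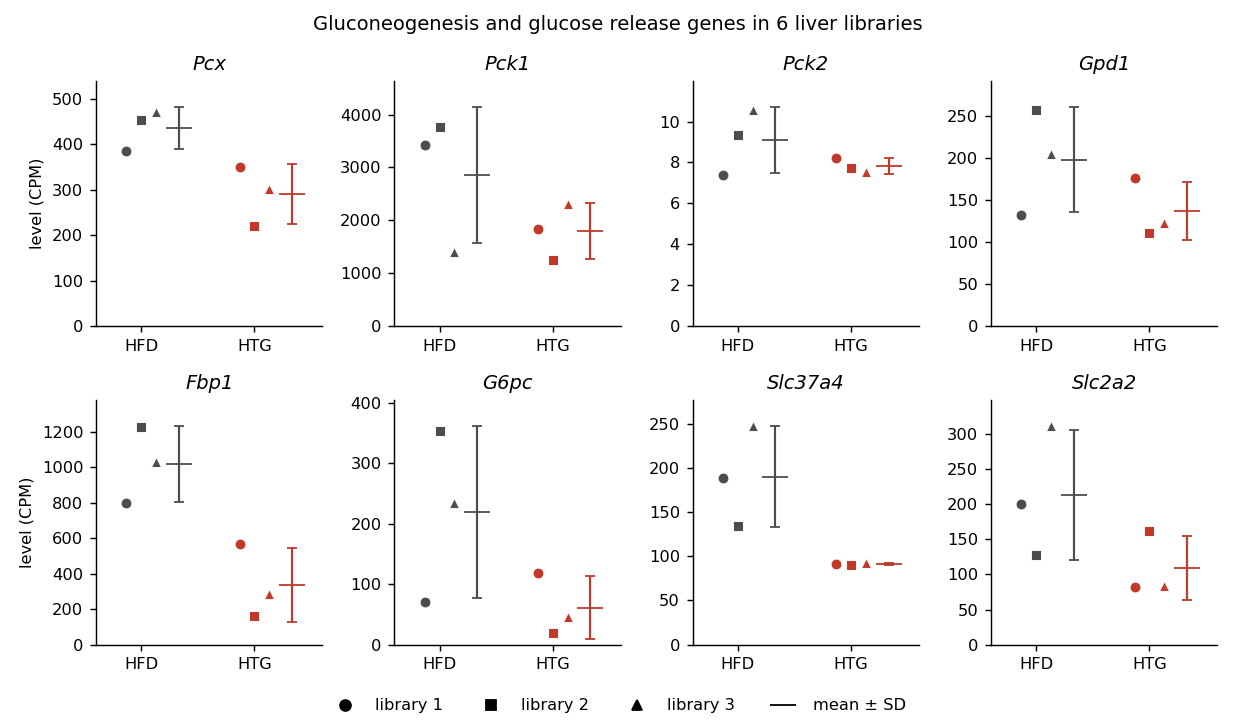
Level of each of the 8 genes in library-scaled counts (CPM, linear axes from 0) in the 3 HFD and 3 HTG libraries, one marker shape per library number, with the mean and SD beside the points. The HTG points lie below all HFD points for Pcx, Fbp1 and Slc37a4, and overlap them for the other 5 genes.

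The plot of CPM by library shows the spread behind these counts. HTG library 2 was the lowest of the 6 libraries for 6 of the 8 genes (Pck1, Fbp1, Pcx, G6pc, Slc37a4 and Gpd1), and HTG library 1 was the lowest for Slc2a2. For Pck2 it was HFD library 1. The summed share of the 8 genes among all counts was 0.543%, 0.594% and 0.401% for HFD libraries 1 to 3 but 0.321%, 0.219% and 0.301% for HTG libraries 1 to 3, so the groups did not overlap in this share. Pck1 alone held 0.357%, 0.353% and 0.143% of the HFD counts and 0.182%, 0.136% and 0.214% of the HTG counts, which overlap. All counts include those of the mitochondrial chromosome, which took a larger part of the HTG libraries.

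**Figure D2:**
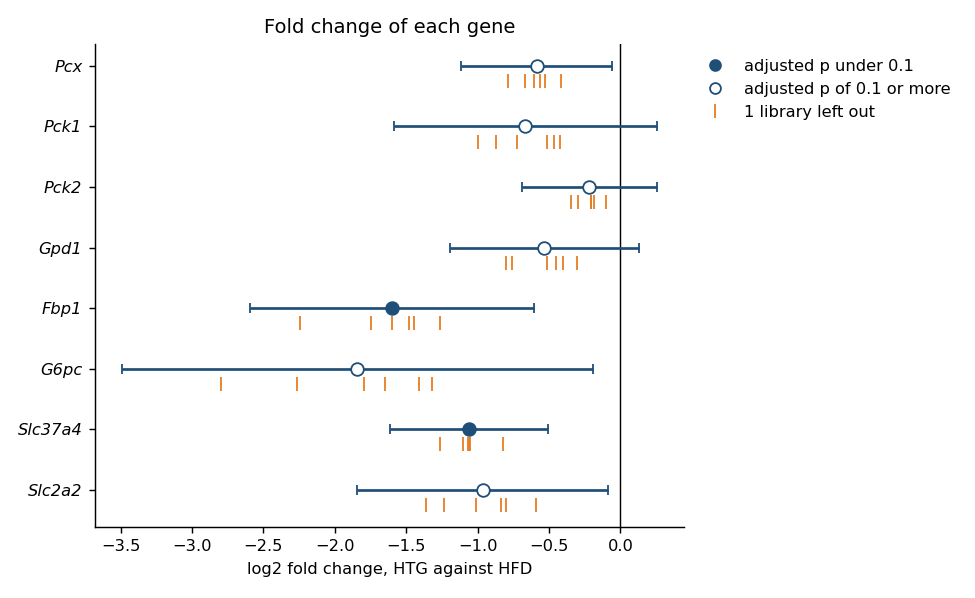
Fitted log2 fold change of each gene, HTG against HFD, with its 95% confidence interval; filled points have an adjusted p under 0.1, and the short orange strokes are the fits with 1 library left out. All points and all strokes lie below 0, and the intervals of Pck1, Pck2 and Gpd1 cross 0.

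The first committed step is that of Pcx, pyruvate carboxylase, which makes oxaloacetate from pyruvate in the mitochondrion (ENSMUSG00000024892, chromosome 19, 4560514 to 4671707, plus strand, as the authors' table lists it). Pcx stood at 384, 453 and 471 CPM in the HFD libraries and at 350, 220 and 302 CPM in the HTG libraries. The groups did not overlap, but HTG library 1 came close to HFD library 1. The means were 436 ± 45.6 CPM (SD, n = 3) and 291 ± 66.2 CPM (SD, n = 3), a log2 fold change of -0.58 (standard error 0.23) that was not called (edgeR, adjusted p = 0.165).

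Pck1, the cytosolic PEP carboxykinase that turns oxaloacetate into phosphoenolpyruvate and a classic target of glucagon and insulin (ENSMUSG00000027513, chromosome 2, 172994841 to 173001066, plus strand), was at 3427, 3757 and 1394 CPM in the HFD libraries and at 1840, 1256 and 2314 CPM in the HTG libraries. HFD library 3 was lower than 2 of the HTG libraries, and the groups overlapped. The means of 2860 ± 1280 CPM (SD, n = 3) and 1803 ± 530.3 CPM (SD, n = 3) gave a log2 fold change of -0.67 (standard error 0.40, edgeR adjusted p = 0.345), with a 95% interval from -1.59 to 0.26. Without HFD library 3 the estimate was -0.999, and without HFD library 2 it was -0.42.

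Pck2, the mitochondrial form of the same enzyme (ENSMUSG00000040618, chromosome 14, 55777723 to 55788699, plus strand), was measured at 7.38, 9.33 and 10.6 CPM in the HFD libraries and at 8.24, 7.71 and 7.51 CPM in the HTG libraries. All 3 HTG values lay inside the HFD range. Its log2 fold change of -0.22 (standard error 0.21, edgeR adjusted p = 0.548) was the smallest of the 8. Per transcript length, Pck1 exceeded Pck2 between 304-fold and 1067-fold in every library (FPKM), so nearly all PEP carboxykinase mRNA in these livers was the cytosolic form.

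Gpd1, the cytosolic glycerol-3-phosphate dehydrogenase through which glycerol enters the pathway (ENSMUSG00000023019, chromosome 15, 99615396 to 99622886, plus strand), was at 132, 256 and 205 CPM in the HFD libraries and at 176, 111 and 123 CPM in the HTG libraries. HTG library 1 lay between HFD libraries 1 and 3, and the groups overlapped. Its log2 fold change was -0.53 (standard error 0.29, edgeR adjusted p = 0.295), with an interval from -1.20 to 0.13.

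Fbp1 (ENSMUSG00000069805, chromosome 13, 63012567 to 63036096, minus strand) removes a phosphate from fructose-1,6-bisphosphate, the step that glycolysis runs in the other direction with phosphofructokinase. It was at 798, 1227 and 1027 CPM in the HFD libraries and at 564, 159 and 284 CPM in the HTG libraries. All HTG libraries lay below the lowest HFD library, but they differed among themselves by 3.55-fold, against 1.54-fold in the HFD group. The mean fell from 1018 ± 215 CPM (SD, n = 3) to 336 ± 207 CPM (SD, n = 3), a log2 fold change of -1.60 (standard error 0.44, edgeR adjusted p = 0.0816). Over the 6 fits that leave out 1 library the estimate ran from -2.24 to -1.26. Its muscle paralogue Fbp2 did not pass the expression filter and was not tested, and no library was above the limit of an empty gene.

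G6pc, the catalytic subunit of glucose-6-phosphatase (ENSMUSG00000078650, chromosome 11, 101258387 to 101268729, plus strand), showed the largest fitted change of the 8 and also the largest spread. It was at 70.8, 354 and 234 CPM in the HFD libraries and at 119, 18.9 and 45.9 CPM in the HTG libraries. The highest library exceeded the lowest by 4.996-fold within the HFD group and by 6.27-fold within the HTG group, and HTG library 1 was above HFD library 1. The means of 220 ± 142 CPM (SD, n = 3) and 61.2 ± 51.6 CPM (SD, n = 3) gave a 3.59-fold difference with a 95% interval from 1.14 to 11.3, or a log2 fold change of -1.84 (standard error 0.72), which was not called (edgeR, adjusted p = 0.162). Without HTG library 1 the estimate was -2.80 and was called (adjusted p = 0.0718), and without HFD library 2 it was -1.32.

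Slc37a4 (ENSMUSG00000032114, chromosome 9, 44308149 to 44314263, plus strand) carries glucose-6-phosphate into the endoplasmic reticulum, where the active site of G6pc lies. It was at 189, 134 and 248 CPM in the HFD libraries and at 91.2, 90.6 and 92.3 CPM in the HTG libraries. The 3 HTG libraries agreed within 1.02-fold and all lay below the lowest HFD library, while the HFD libraries spread over 1.85-fold. The mean fell from 190 ± 57.1 CPM (SD, n = 3) to 91.4 ± 0.872 CPM (SD, n = 3), a log2 fold change of -1.06 (standard error 0.24, edgeR adjusted p = 0.0613). The estimate without 1 library ran from -1.26 to -0.83.

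Slc2a2, which encodes the low-affinity glucose transporter GLUT2 of the hepatocyte surface (ENSMUSG00000027690, chromosome 3, 28752052 to 28785508, plus strand), was at 201, 127 and 312 CPM in the HFD libraries and at 82.7, 162 and 83.2 CPM in the HTG libraries. HTG library 2, the lowest library for most of the other genes, was the highest of its group here and lay above HFD library 2. The means of 214 ± 93.2 CPM (SD, n = 3) and 109 ± 45.8 CPM (SD, n = 3) gave a log2 fold change of -0.96 (standard error 0.38, edgeR adjusted p = 0.169), with an interval from -1.85 to -0.08.

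Promoter sequence is shown for both called genes and for the pair best known as targets of glucagon and insulin, because the hormone response of this pathway is read at these start sites. RefSeq held a promoter record for 6 of the 8 genes in the rat build GRCr8 (Slc37a4 with a pair of starts, of which the first is given), and the 250 bases before the start are given from 5′ to 3′ on the plus strand. They are rat sequences, while the gene rows are mouse genes. Capitals mark the letters of 3 motifs searched on both strands. The cAMP response element half-site, which the factor CREB binds after a glucagon signal, was searched as TGACG. For the core of the insulin response element, to which FOXO1 binds when insulin is low, the letters were TGTTTTG. The TATA box, where transcription machinery assembles near many start sites, was searched as TATAAA. A match on the minus strand, as in Pck1, is in capitals as its reverse complement. No match shared bases with another.
Pck1, chr3:182348322-182348571: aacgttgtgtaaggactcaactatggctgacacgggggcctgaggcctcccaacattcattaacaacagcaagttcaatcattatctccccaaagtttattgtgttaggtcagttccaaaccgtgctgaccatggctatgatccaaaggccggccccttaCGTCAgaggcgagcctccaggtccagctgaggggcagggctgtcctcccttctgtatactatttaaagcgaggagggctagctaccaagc
G6pc, chr10:86807409-86807658: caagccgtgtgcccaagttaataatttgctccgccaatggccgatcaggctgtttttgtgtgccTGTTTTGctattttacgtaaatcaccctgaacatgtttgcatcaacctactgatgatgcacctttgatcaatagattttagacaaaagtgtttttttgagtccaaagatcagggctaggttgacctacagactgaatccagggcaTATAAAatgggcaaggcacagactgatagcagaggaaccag
Slc37a4, chr8:53619775-53620024: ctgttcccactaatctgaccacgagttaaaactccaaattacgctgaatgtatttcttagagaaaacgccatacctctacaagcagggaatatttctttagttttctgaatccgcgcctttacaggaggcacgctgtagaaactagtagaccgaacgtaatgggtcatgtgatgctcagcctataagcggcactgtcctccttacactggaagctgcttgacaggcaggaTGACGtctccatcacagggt
Fbp1, chr17:2213457-2213706: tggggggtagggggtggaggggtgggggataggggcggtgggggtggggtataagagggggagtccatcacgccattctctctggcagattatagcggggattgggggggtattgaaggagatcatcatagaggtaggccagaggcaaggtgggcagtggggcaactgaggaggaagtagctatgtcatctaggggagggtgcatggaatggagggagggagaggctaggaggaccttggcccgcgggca

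The half-site TGACG was found on the minus strand 90 bases before the Pck1 start and on the plus strand 20 bases before the first Slc37a4 start. So 2 of the 6 genes with a record held it, against 18.2% of the 33469 rat promoter windows of this length. Before the second Slc37a4 start, which is not printed, it stood at 203 bases (plus strand) and 74 bases (minus strand). The letters TGTTTTG stood 186 bases before the G6pc start, as they do somewhere in 5.46% of the windows, and TATAAA stood 41 bases before it (12.9% of the windows). None of the 3 motifs was in the Fbp1 window or in the Pck2 and Slc2a2 windows, which are not printed. This says only that these letters are not there. Both called genes thus differ in what their windows hold, and the matches describe sequence, not binding in these livers.

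Between genes, levels can be compared only per transcript length, and FPKM values give an order in which most neighbours overlapped. In the HFD group Pck1 led with a mean of 799 ± 342 FPKM (SD, n = 3), followed by Fbp1 with 574 ± 93.4 FPKM. Next came Pcx (88.6 ± 8.87), G6pc (86.1 ± 52.3), Slc37a4 (65.0 ± 22.0), Gpd1 (63.9 ± 17.2) and Slc2a2 (36.3 ± 17.0), all with ranges that overlapped those of their neighbours. Pck2 was last with 1.11 ± 0.199 FPKM. Only the steps from Fbp1 to Pcx and from Slc2a2 to Pck2 were free of overlap, and in HFD library 3 Pck1 lay below Fbp1.

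**Figure D3:**
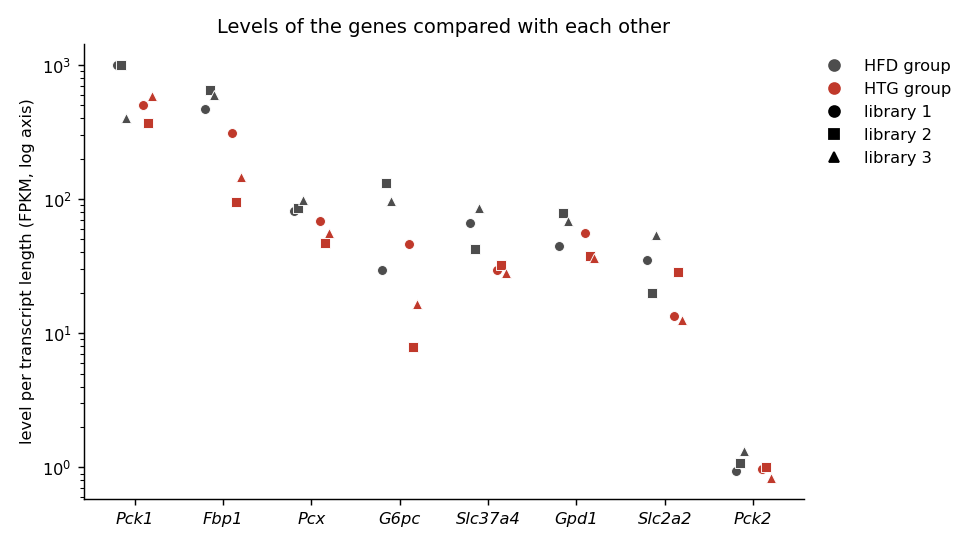
Level of each gene per transcript length in FPKM (log axis) in every library, HFD grey and HTG red, with the genes in the order of their HFD means. Pck1 and Fbp1 stand above the middle group, which runs from 88.6 to 36.3 FPKM on average in the HFD group, and Pck2 lies near 1 FPKM.

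In the HTG group the order on the FPKM scale was Pck1 (486 ± 109), Fbp1 (183 ± 112), Pcx (56.9 ± 11.1), Gpd1 (43.2 ± 10.8), Slc37a4 (30.0 ± 1.98), G6pc (23.5 ± 19.9), Slc2a2 (18.2 ± 8.97) and Pck2 (0.937 ± 0.0929). G6pc stood lower in this order than in the HFD group, but its range overlapped those of Slc37a4 and Slc2a2. As the plot of FPKM on the log axis shows, Pck1 and Fbp1 no longer overlapped: Pck1 exceeded Fbp1 by 1.62-fold, 3.93-fold and 4.04-fold in HTG libraries 1, 2 and 3, against 2.13-fold, 1.52-fold and 0.673-fold in HFD libraries 1, 2 and 3, ranges that do overlap between the groups. The ratio of Fbp1 to Pcx was 5.80, 7.56 and 6.10 for HFD libraries 1 to 3 but 4.49, 2.02 and 2.63 for HTG libraries 1 to 3, with no overlap. Of the FPKM ratios between these genes that were computed, it was the only one whose groups did not overlap. Ratios were computed for only some pairs, and Fbp1 was itself called lower. How often ratios of other genes separate the groups was not computed. No test was made of these ratios. Among all genes listed, Pck1 ranked between 68 and 124 by FPKM in every library, whereas G6pc ranked between 346 and 1259 in the HFD libraries and between 854 and 3562 in the HTG libraries.

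The pattern over the 6 libraries was not shared by all 8 genes. Likeness was measured as the root mean square difference between log2 CPM values, each centred on its own mean over the 6 libraries, among 14369 genes with at least 50 counts on average. Among the 3 genes most like Pck1 were Fam83g (0.185) and Serpina7 (0.204), and those most like G6pc were Il22ra1 (0.352), Eno2 (0.467) and Tubb2a (0.482). Fbp1 was the 11th most like G6pc, with a difference of 0.577. Pck1 and G6pc differed from each other by 1.30, so that G6pc was in place 13801 of the genes ordered by likeness to Pck1. These are descriptions over the same 6 libraries, whose differences in depth and group are common to every gene.

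Of the pathway around these genes, 86 genes in 6 lists were followed, and 84 were tested. At an adjusted p under 0.1, 17 (20.2%) were lower and 4 (4.76%) were higher in the HTG group. Of all genes tested 5.43% were lower and 5.41% higher, shares to set beside each count of calls below. The median log2 fold change was -0.41 over the lists and 0.03 over all genes tested. Leaving out 1 library at a time changed these 21 calls to between 0 (without HFD library 2 or 3, or HTG library 2 or 3) and 24 (without HTG library 1), with 3 without HFD library 1. Of all genes tested, 8.16% were called lower without HTG library 1 and 1.1% without HFD library 1. In each of the other fits with 1 library left out, at most 0.0362% were. The table's own GO annotation for gluconeogenesis held 42 genes, of which 39 were tested, 9 (23.1%) lower and 0 higher, with a median of -0.56. Among its 19 genes that were neither in the lists nor among the 8, 18 were tested and 2 were lower: the enolases Eno2 (-2.38 on the log2 scale, edgeR adjusted p = 0.0665) and Eno1b (-1.78, adjusted p = 0.0585), which are named here after their values were seen. Eno2 was at 1.35, 3.42 and 3.94 CPM in the HFD libraries and at 0.963, 0.276 and 0.427 CPM in the HTG libraries. Its HTG values were thus not far above the limit of an empty gene, and its fold change is less certain. Eno1b is close in sequence to Eno1, so reads of both could be shared.

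**Figure D4:**
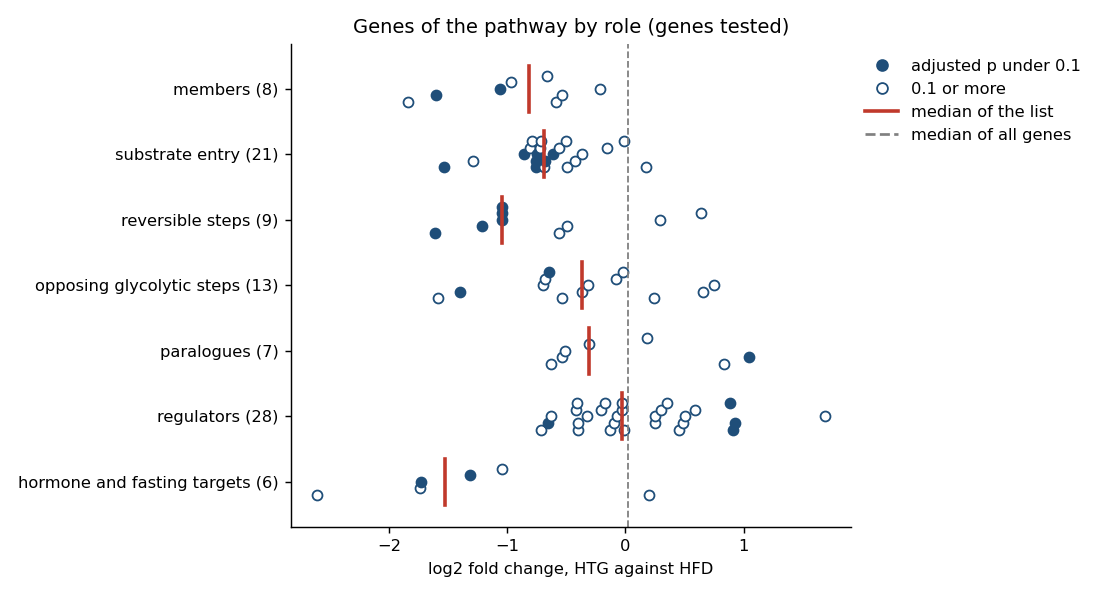
Log2 fold change, HTG against HFD, of every tested gene of the 8 and of the 6 pathway lists, filled where the adjusted p was under 0.1, with the median of each list (red bar) and of all genes tested (dashed line, 0.03). The reversible steps and the hormone and fasting targets have their medians farthest below 0 (-1.04 and -1.52), and the regulators are spread around 0 (median -0.03).

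The reversible steps, which both directions of the pathway use, had the largest share of lower genes. Of 9, 5 were lower (55.6%, against 5.43% of all genes tested) and 0 higher, with a median of -1.04. Pgk1, phosphoglycerate kinase, fell from 288 ± 51.7 to 94.4 ± 50.9 CPM (SD, n = 3 each), a log2 fold change of -1.61 (edgeR, adjusted p = 0.0627), and Eno1, the main enolase, from 551 ± 186 to 238 ± 55.7 CPM (-1.21, adjusted p = 0.0659). Tpi1 and Pgam1, named after their values were seen, both had a log2 fold change of -1.04. Of the 9 fitted changes 7 lay below 0. Eno3 and Gapdh, named in the same way, gave 0.64 and 0.29 and were not called (edgeR, adjusted p = 0.200 and 0.656). Several of these genes have near-identical pseudogenes, and Aldoa was listed on 2 rows, so their counts are less certain than those of the 8 genes.

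Among the 21 genes that bring substrates in or shuttle them, 7 were lower (33.3%, against 5.43% of all genes tested) and 0 higher. Their median was -0.69. Got1, the cytosolic aspartate aminotransferase of the malate-aspartate shuttle, was at 206, 497 and 201 CPM in the HFD libraries and at 152, 59.4 and 101 CPM in the HTG libraries (log2 fold change -1.53, edgeR adjusted p = 0.0936). Gpt2, the mitochondrial alanine aminotransferase, fell by 0.86 on the log2 scale (adjusted p = 0.0777) and Mdh1, the cytosolic malate dehydrogenase that restores oxaloacetate outside the mitochondrion, by 0.76 (adjusted p = 0.0984). The other 4, named after their values were seen, were Gpd1l, a relative of Gpd1, the oxoglutarate carrier Slc25a11 and the aspartate-glutamate carriers Slc25a12 and Slc25a13. Not called were Ldha, which makes pyruvate from lactate (-0.79, adjusted p = 0.313), the cytosolic alanine aminotransferase Gpt (-0.16, 0.705), the glycerol channel Aqp9 (-0.43, 0.271), glycerol kinase Gk (-0.72, 0.407) and the pyruvate carrier subunit Mpc1 (-0.01, 0.983), where the second value in each bracket is the adjusted p. Mpc1, Gk and the insulin receptor substrate Irs2 are the named genes whose sign turned under some alternatives.

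The steps that oppose gluconeogenesis gave 2 lower genes of 13 (15.4%, against 5.43% of all genes tested) and 0 higher, with a median of -0.37. Both were forms best known from other tissues: Pkm, the muscle-type pyruvate kinase, fell from 73.8 ± 23.8 to 28.0 ± 9.63 CPM (log2 fold change -1.40, edgeR adjusted p = 0.0612) and Pfkm, the muscle-type phosphofructokinase, from 16.4 ± 1.42 to 10.5 ± 0.199 CPM (-0.64, adjusted p = 0.0674). Gckr gave 0.24 (adjusted p = 0.610). The liver pyruvate kinase Pklr was at 138, 79.6 and 669 CPM in the HFD libraries and at 48.2, 106 and 141 CPM in the HTG libraries, and its log2 fold change of -1.59 (adjusted p = 0.235) became -0.15 without HFD library 3.

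Of the paralogues of the 8 genes, 7 of 9 were tested, with a median of -0.31. None was lower and 1 was higher (14.3%, against 5.41% of all genes tested). Slc37a1, a relative of Slc37a4 that does not work with G6pc, rose from 11.7 ± 3.31 to 24.2 ± 5.48 CPM (log2 fold change 1.05, edgeR adjusted p = 0.0640). G6pc3, the glucose-6-phosphatase that most cells express, was at 7.56, 6.55 and 9.29 CPM in the HFD libraries and at 11.0, 19.7 and 11.1 CPM in the HTG libraries, with no overlap and a log2 fold change of 0.84 that was not called (adjusted p = 0.115). The glucose transporter Slc2a1 (GLUT1) gave -0.31 (adjusted p = 0.482).

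**Figure D5:**
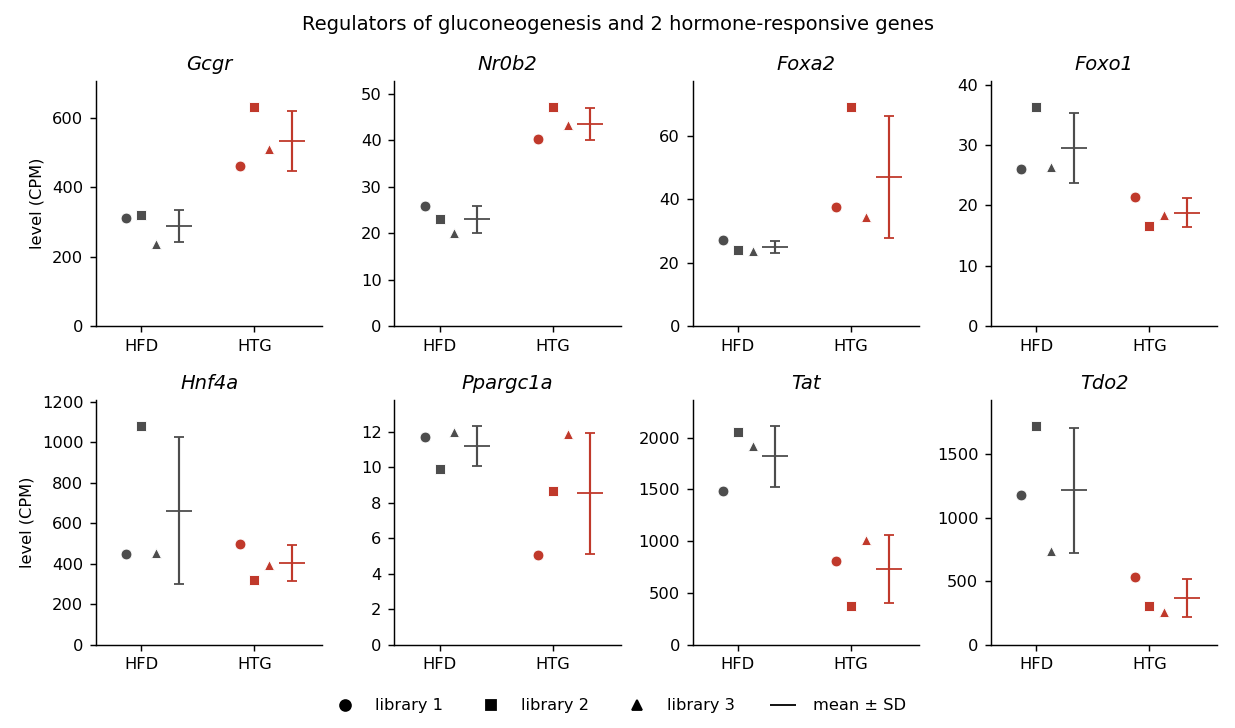
Level in CPM (linear axes from 0) of 6 regulators of gluconeogenesis and of Tat and Tdo2 in the 3 HFD and 3 HTG libraries, with the mean and SD beside the points. The groups do not overlap for Gcgr, Nr0b2, Foxa2, Foxo1, Tat and Tdo2, and overlap for Hnf4a and Ppargc1a. Of the 18455 genes tested, 2865 had groups without overlap with HTG lower and 3052 with HTG higher.

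Of the 28 regulators, 3 were higher (10.7%) and 1 was lower (3.57%), with a median of -0.03. Among all genes tested 5.41% were higher and 5.43% lower, so counts this small stand near those shares. The glucagon receptor Gcgr was at 311, 320 and 236 CPM in the HFD libraries and at 461, 631 and 510 CPM in the HTG libraries, a log2 fold change of 0.89 (standard error 0.22, edgeR adjusted p = 0.0691). Nr0b2 encodes SHP, a nuclear receptor known to repress gluconeogenic and bile acid genes, and rose from 23.0 ± 2.82 to 43.6 ± 3.43 CPM (0.92, adjusted p = 0.0550). The liver factor Foxa2 rose by 0.91 (adjusted p = 0.0948), with HTG library 2 at 68.9 CPM and the other HTG libraries at 37.4 and 34.4 CPM.

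Foxo1, the factor through which insulin restrains G6pc and Pck1, fell from 29.5 ± 5.81 to 18.8 ± 2.42 CPM (SD, n = 3 each), a log2 fold change of -0.65 (standard error 0.19, edgeR adjusted p = 0.0937). The plot of regulators by library shows its groups apart. Not called were Ppargc1a, the coactivator PGC-1α (-0.40, adjusted p = 0.444), Hnf4a (-0.71, 0.282), Klf15 (-0.42, 0.228) and Irs2 (-0.13, 0.860), where the second value is again the adjusted p. In Hnf4a a single library stood out, with 1082 CPM in HFD library 2 against 319 to 499 CPM in the other 5.

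Of 6 genes known to follow fasting hormones in liver, 2 were lower (33.3%, against 5.43% of all genes tested) and 0 higher. Their median log2 fold change was -1.52. Of the 6 fitted changes 5 lay below 0, and Sds, named after its values were seen, gave 0.20 (edgeR, adjusted p = 0.583). Tat, tyrosine aminotransferase, was at 1485, 2051 and 1918 CPM in the HFD libraries and at 807, 372 and 1011 CPM in the HTG libraries (-1.32, edgeR adjusted p = 0.0839). Tdo2, tryptophan dioxygenase, was at 1180, 1723 and 740.5 CPM in the HFD libraries and at 533, 307 and 257 CPM in the HTG libraries (-1.73, adjusted p = 0.0612). Both break down amino acids, and both had groups that did not overlap. Every HTG library was below every HFD library in 15.5% of all genes tested.

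Gluconeogenesis is known to be strongest in hepatocytes around the portal vein, so markers of position and of other cells are given beside the results. The 7 periportal markers summed to between 7380 and 10451 CPM in the HFD libraries and to between 4092 and 4762 CPM in the HTG libraries, and 2 of them (Ass1 and Cps1) were lower. These 2 genes, with HFD means of 2991 and 2751 CPM, made up most of the HFD sum. Of the 7 fitted changes 6 lay below 0, but that of Arg1 was only -0.12, and Hal gave 0.13. The 7 pericentral markers summed to between 8388 and 14527 CPM and between 6095 and 10262 CPM, and 4 of them (Glul, Cyp1a2, Oat and Slc1a2) were lower, so markers of both positions were among the lower genes. Here too 6 of the 7 fitted changes lay below 0, with Lect2 at -0.09 and Rgn at 0.29. The 6 hepatocyte markers summed to between 72560 and 88400 CPM in the HFD libraries and between 65019 and 70570 CPM in the HTG libraries, with 1 of 6 lower (Apob). Alb made up most of this sum in every library (log2 fold change -0.28, not called). Of the 6 fitted changes 4 lay below 0, and Ttr and Fga gave 0.06 and 0.01. Of these markers, 1 is also on the list of regulators. The part of these shifts in the lower levels of Fbp1 and Slc37a4 was not tested.

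Other cell types moved less evenly. The 5 leukocyte markers summed to between 289 and 426 CPM in the HFD libraries and between 180 and 275 CPM in the HTG libraries, with 0 called. Lyz2 makes up most of this sum (log2 fold change -0.76, edgeR adjusted p = 0.133), and the fitted changes of the other 4, Ptprc, Cd3e, Cd79a and S100a8, lay between 0.04 and 0.25. The 4 biliary markers summed to between 8.41 and 10.2 CPM in the HFD libraries and to between 10.7 and 10.9 CPM in the HTG libraries. Sox9 was higher (0.79, adjusted p = 0.0939), Epcam had non-overlapping lower HTG values and was not called (-0.95, adjusted p = 0.158), and Krt19 and Krt7 gave 0.06 and -0.08. The sums of the Kupffer cell, sinusoidal endothelium, stellate cell and red cell markers overlapped between the groups, with Reln of the stellate list lower and 0 called in the other 3. Of the exocrine pancreas markers in the table, Ctrb1 and Pnlip were at 0 in every library. The part of these markers in the levels of the 8 genes was not tested.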

How the data were processed

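Liver RNA of 3 HFD and 3 HTG animals (poly(A)-selected, paired-end, strand-marked libraries) was analysed. The authors deposited estimated counts per gene (whole numbers, no scaling between libraries) and FPKM, which the authors scaled by transcript length and library size. The submitters' processing notes name HISAT2, StringTie, SAMtools and the rat build mRatBN7.2, while the rows are mouse Ensembl genes. The build of their coordinates and any use of strand in counting are not given in the sources used here.

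Counts were tested with edgeR 4.0.16 (glmQLFit and glmQLFTest, TMM, filterByExpr, group as the only term) in R 4.3.3 and adjusted by Benjamini-Hochberg over the 18455 genes tested. A gene was called at an adjusted p under 0.1, chosen knowing that few genes pass 0.05. An exact permutation test of 3 against 3 cannot go below 0.1. Groups came from the labels. The 8 genes and all lists were chosen with earlier results of these data known. Named genes were all 8, up to 3 called genes with the largest change per pathway list, 18 fixed names and the 3 genes most like Pck1 and G6pc. Some of these are not reported here. For a symbol listed more than once, the row with most counts was used. Markers Tf, Lep, Slc22a8 and Cpa1 matched no row. Scripts were tested on simulated data. Alternatives were DESeq2 1.42.0, other filters and scalings, a replicate block, 1 library left out, counts divided by 4, and limma 3.58.1 on log2(FPKM + 0.1) or log2(FPKM + 1) with a mean FPKM of at least 1.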

Additional observations from a re-analysis of the deposited data

How the results depend on the processing

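None of the 8 genes changed sign in any of the 15 alternative fits, and 0 were called higher in each. Fbp1 and Slc37a4 had an unadjusted p under 0.05 in all 15 and an adjusted p under 0.1 in 9 each (adjusted p from 0.000997 to 0.227 and from 0.00165 to 0.206). DESeq2 called 4 of the 8 lower (5.69% of all genes it tested), and an adjusted p under 0.05 left 0. Leaving out 1 library gave 0 to 4 of the 8 and 0 to 24 calls in the pathway lists; without the filter on low counts the lists had 13. With 2 libraries in a group the spread is pooled over both groups. Of all calls 50.1% were lower, against 61.0% and 60.7% in limma (pseudocounts 0.1 and 1) and 61.1% without HTG library 1. At an adjusted p under 0.05 DESeq2 called 2089 genes in all, limma 878 and 884, counts divided by 4 822, a minimum of 10 counts 684, the fit without HTG library 1 653, no filter 162 and the reported fit 2. Signs turned in 3 uncalled genes. With 1 library left out, Irs2 ran from -0.44 to 0.21 (positive without HFD replicate 2 and, at 0.15, without HTG replicate 2), Gk from -1.19 to 0.042 (positive without HFD replicate 2) and Mpc1 from -0.24 to 0.16 (positive without HFD replicate 1 or 2 and without HTG replicate 3). Mpc1 was 0.0245 with upper-quartile scaling and 0.00312 with counts divided by 4. The causes were not tested.

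The replicate numbers were not taken as pairs: deviations of same-numbered libraries correlated at -0.0779, -0.0731 and 0.101, and not every library correlated best with its own number. With the replicate block, 0 of the 8, 0 of the pathway lists and 0 of all genes were called. Among the 8 genes and the pathway lists, Fbp2 and G6pc2 had too few counts to be tested, as did Gcg of the GO term and several markers of other tissues.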
